A study of Mus musculus with 6 samples.

Results

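The genes described here encode the machinery that copies DNA in S phase, 49 of them, measured in mouse embryonic stem (ES) cells of which one line lacks Dicer, the ribonuclease that makes mature microRNAs. They were taken from a list covering origin licensing, the replicative helicase, its activation, the polymerases and their clamp, Okazaki fragment maturation and the supply of deoxynucleotides. A gene was read by probe sets, sets of short probes on an Affymetrix array, whose annotation named that gene alone, and the probe set brightest on average stood for the gene. All 49 had such a probe set, among 18193 genes of the array that did, and 107 probe sets in all belonged to them. All 49 passed the filter on low values, an intensity of 32 on at least 3 arrays, among 12902 genes that were tested.

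The study hybridised total RNA, as biotinylated cRNA, from a Dicer -/- line (27H, called 27H10 in the series title) and a Dicer +/- line (D4), on 3 arrays each. The sample titles call both lines undifferentiated ES cell lines. They are called null and heterozygous cells here. Heterozygous cells keep an intact Dicer copy, and neither line is labelled wild type. The labels give 1 line per genotype, so genotype and line cannot be told apart. They do not state that the 3 arrays of a line were separate cultures, so the p-values cover only the spread between these arrays, which may be technical. Each array measured bulk RNA, in which fewer cells in S phase and less RNA per cell cannot be told apart. Values are intensities in arbitrary units, which the authors scaled so that every array has the same trimmed mean of 500, and the number of arrays limits their precision.

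Before S phase, the origin recognition complex (ORC), with Cdc6 and Cdt1, loads the MCM helicase onto DNA, and geminin blocks Cdt1 once replication has begun. The Cdc7-Dbf4 kinase, Cdc45 and the GINS complex then turn the loaded helicase into an active one, and polymerases held by the clamp PCNA copy both strands. Many of these genes are transcribed by E2F factors, which the retinoblastoma family restrains. Mouse ES cells divide fast, with a short G1 phase.

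The 7 ES cell markers Pou5f1, Nanog, Sox2, Zfp42, Esrrb, Tdgf1 and Utf1 read between 3813 and 14951 on every array. All 7 feeder fibroblast, 5 primitive endoderm and 4 trophectoderm markers stayed under 500 on every array, and 0 of them read exactly 0. The summed feeder markers spanned 415 to 553 in null and 387 to 440.4 in heterozygous arrays. Among the feeder markers, Dcn averaged 263 in null and 31.0 in heterozygous cells, and Col1a1 6.62 in null and 70.0 in heterozygous cells. The primitive endoderm markers summed to 205 to 228 in null and 291 to 513 in heterozygous arrays. The trophectoderm markers summed to 207 to 307 in null and 359 to 503 in heterozygous arrays. Of the control probe sets, the ratio of the 3′ to the 5′ probe set of beta-actin was 1.74 to 1.78 in null and 1.34 to 1.46 in heterozygous arrays, which do not overlap. The same ratio for Gapdh was 0.812 to 0.841 in null and 0.813 to 0.844 in heterozygous arrays. The part of these differences in the results was not tested.

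Probe sets of the replication machinery were bright in both lines, and most differed little. Of the 49 genes, 46 were at 500 or more on every array; Mcm8, Gins3 and Tyms were not. At a limma adjusted p under 0.05, 10 genes were higher in null cells and 11 lower, while 28 passed in neither direction. Over all genes tested, 24.5% were higher and 24.4% lower, 48.9% together, so the shares of the replication genes, 20.4% and 22.4%, are near the background. With a 2-fold change as well, 1 gene was higher and 2 were lower, against 7.22% and 6.22% of all genes, 13.4% together. For 25 of the 49 genes every null array lay on the same side of every heterozygous array, as it did for 57.3% of all genes. Arrays centred on their medians gave 17 higher and 5 lower genes, a setting in which the median of all tested genes was 0.14 on the log2 scale, with 32.4% of them higher and 16.3% lower.

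The differences themselves were narrow. The median difference, null minus heterozygous, was -0.07 on the log2 scale, against -0.02 over all genes. The central part of the list, between its quartiles, lay between -0.18 and 0.11, against -0.43 and 0.40 over all genes, an interquartile range of 0.29 for the replication genes and 0.83 for all genes. Dim probe sets can differ more, so the genes with a mean intensity between 1000.3 and 10949, the band that holds 39 of the 49, were set beside them. The interquartile range was 0.60 for the 3989 genes of the band and 0.29 for the 39. Of those 39, 5 differed by at least 0.5 in either direction, against 28.2% of the genes in the band, and 19 passed the test, against 63.3%. The standard deviation between arrays of a line had a median over the 49 genes of 6.11% of the mean in null and 5.36% in heterozygous cells.

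**Figure D1:**
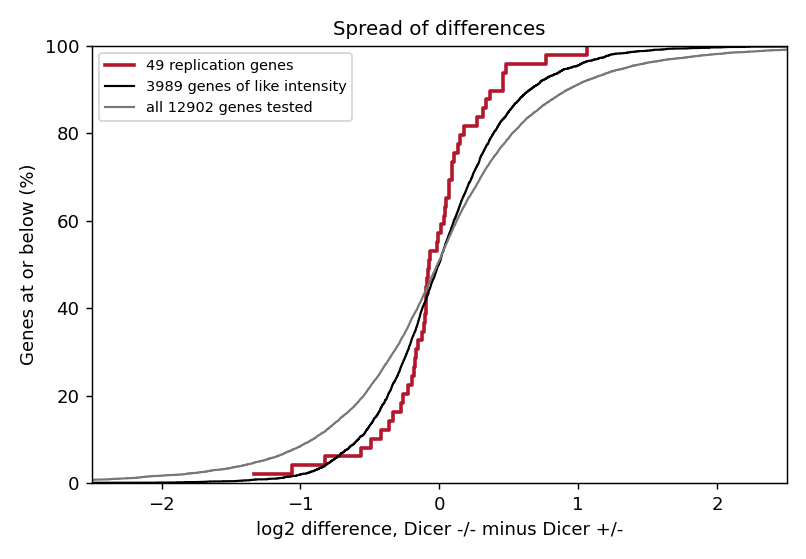
Cumulative share of genes (vertical axis, %) at or below a given log2 difference between Dicer -/- and Dicer +/- cells (horizontal axis), for the 49 replication genes, for 3989 genes of like mean intensity and for all 12902 genes tested. The line of the replication genes is the steepest around 0, with an interquartile range of 0.29, against 0.60 and 0.83.

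A few genes stood apart from this narrow range. A difference of at least 0.5 was seen in 6 of them, all past the test, while 43.1% of all genes differed by that much: Orc1, Dut, Dbf4 and Gins3 were lower in null cells, and Prim2 and Pold2 were higher. The call was kept for 9 of the 21 genes under all the settings tried that measured them. These were Orc1, Dbf4 and Dut, which were lower, and Mcm3, Prim2, Pold1, Pold2, Rpa1 and Tk1, which were higher.

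**Figure D2:**
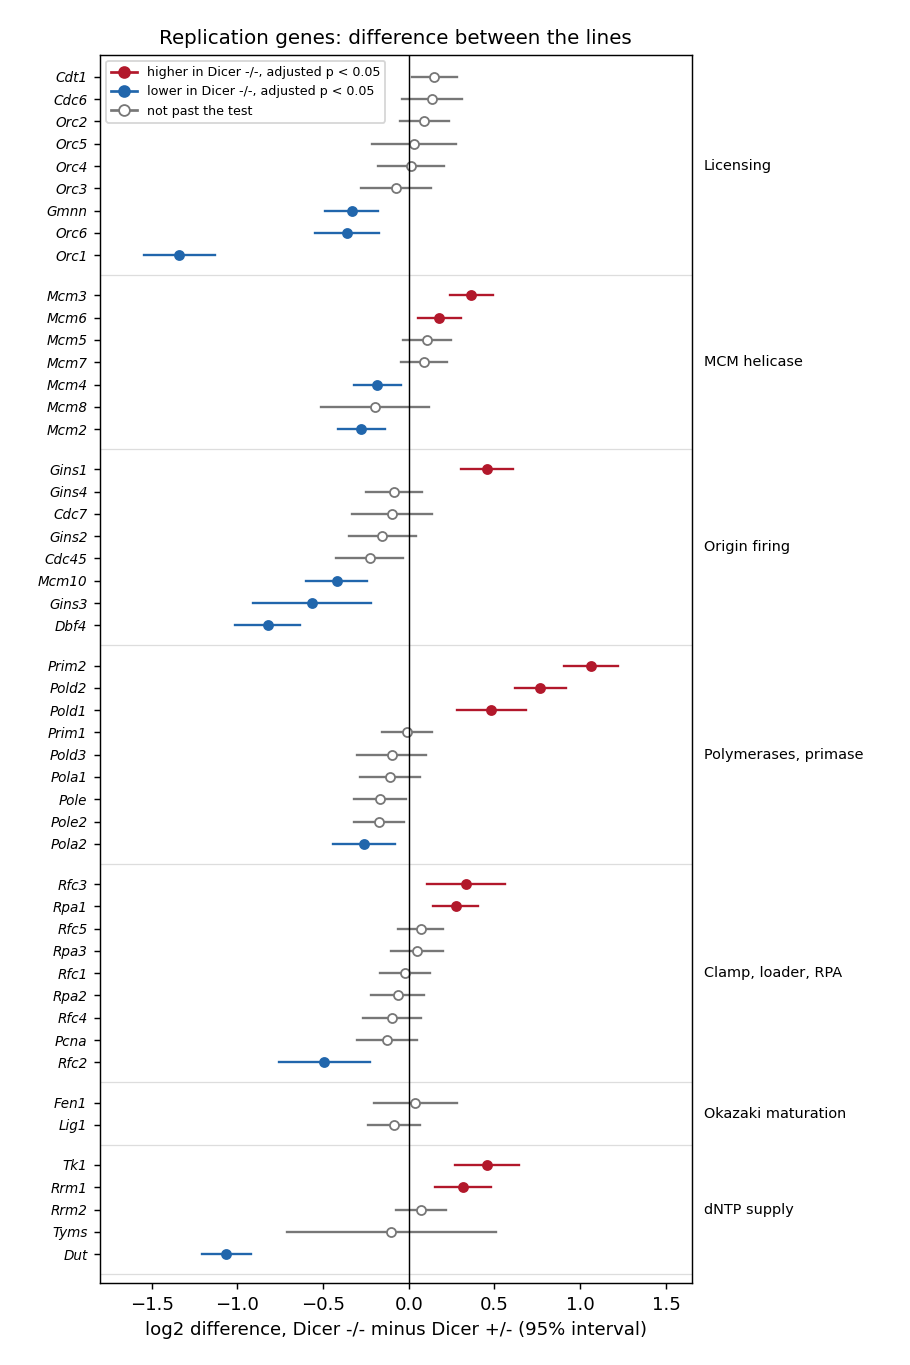
Log2 difference, Dicer -/- minus Dicer +/-, for each of the 49 genes, grouped by role, with its 95% confidence interval from limma (3 arrays per line). Filled points passed an adjusted p of 0.05; the extremes are Orc1 at -1.34 and Prim2 at 1.06, and 28 open points did not pass.

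Promoters of 41 of the 49 genes were in a RefSeq table of windows from 250 bases before to 50 bases after a gene's start (build GRCm38.p6), as 50 windows. They were searched on both strands for the E2F sequences TTTCGCGC and TTTGGCGC and for CCAAT, the sequence bound by NF-Y. An E2F sequence stood in 22% of the windows of these genes and in 0.813% of all 32851 windows, and CCAAT in 52% and 37.4%. By gene, an E2F sequence was found for 11, which were 3 of the 8 higher genes with a window, 1 of the 8 lower genes and 7 of the 25 that did not pass. Windows of 5 genes are shown because they pair the searched letters with each outcome. Orc1 (lower), Mcm6 (higher) and Mcm5 (not past the test) hold an E2F sequence, Pold2 (higher) holds CCAAT alone, and Dut (lower) holds neither. Capitals mark matches on either strand, so a match on the other strand appears as its reverse complement, and in Mcm6 and Mcm5 matches to the E2F sequences overlap.
Orc1, chr4:108579204-108579503, plus strand: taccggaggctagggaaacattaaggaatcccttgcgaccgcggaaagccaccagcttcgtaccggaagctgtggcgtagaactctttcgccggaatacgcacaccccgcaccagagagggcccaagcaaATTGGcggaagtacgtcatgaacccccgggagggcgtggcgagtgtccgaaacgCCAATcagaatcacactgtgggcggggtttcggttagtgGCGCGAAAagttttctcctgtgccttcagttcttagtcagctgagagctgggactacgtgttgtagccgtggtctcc
Mcm6, chr1:128359656-128359955, minus strand: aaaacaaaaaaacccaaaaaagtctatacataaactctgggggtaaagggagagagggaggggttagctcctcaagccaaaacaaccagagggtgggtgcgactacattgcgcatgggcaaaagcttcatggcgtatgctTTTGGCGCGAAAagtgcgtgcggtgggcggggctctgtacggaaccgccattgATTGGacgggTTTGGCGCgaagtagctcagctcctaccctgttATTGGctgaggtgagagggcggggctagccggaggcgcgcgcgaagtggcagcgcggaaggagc
Mcm5, chr8:75109259-75109558, plus strand: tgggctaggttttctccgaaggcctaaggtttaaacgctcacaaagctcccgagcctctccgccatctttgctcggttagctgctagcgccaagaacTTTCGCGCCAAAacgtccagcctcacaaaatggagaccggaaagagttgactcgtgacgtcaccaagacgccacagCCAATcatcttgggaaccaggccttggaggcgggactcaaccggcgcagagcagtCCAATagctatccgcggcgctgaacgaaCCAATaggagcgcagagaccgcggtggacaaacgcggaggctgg
Pold2, chr11:5878207-5878506, minus strand: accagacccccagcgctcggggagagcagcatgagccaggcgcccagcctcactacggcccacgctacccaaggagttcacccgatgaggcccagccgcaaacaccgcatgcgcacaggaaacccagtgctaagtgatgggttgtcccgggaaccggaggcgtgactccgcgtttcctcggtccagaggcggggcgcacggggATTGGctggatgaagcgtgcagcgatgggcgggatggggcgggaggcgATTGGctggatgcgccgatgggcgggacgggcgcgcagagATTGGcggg
Dut, chr2:125247265-125247564, plus strand: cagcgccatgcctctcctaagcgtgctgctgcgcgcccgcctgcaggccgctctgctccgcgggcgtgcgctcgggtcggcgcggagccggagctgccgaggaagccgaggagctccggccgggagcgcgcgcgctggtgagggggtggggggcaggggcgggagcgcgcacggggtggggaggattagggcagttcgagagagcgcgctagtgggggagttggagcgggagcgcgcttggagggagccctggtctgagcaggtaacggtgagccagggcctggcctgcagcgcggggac
A match is a stretch of letters and not a measured binding site.

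Among the 9 genes of origin licensing, 0 were higher and 3 were lower, against 24.5% and 24.4% of all genes tested. Their median difference was 0.01. Orc1, the ATPase subunit of ORC whose level follows the cell cycle, had the largest difference of the 49 genes, and its promoter window with an E2F sequence is printed above. It read 992, 1050 and 896 in the null arrays and 2658, 2588 and 2191 in the heterozygous arrays. Every null array was below every heterozygous array. Orc1 fell to 979 ± 77.7 in null cells, against 2479 ± 252 in heterozygous cells (SD, n = 3), 2.53-fold lower, with a log2 difference of -1.34 ± 0.09 (SE) and a limma adjusted p of 7.67e-07. A dimmer second probe set of Orc1 differed by -0.91. The ORC subunit Orc6 fell by 0.36 on the log2 scale, to 2804 ± 251 in null against 3598 ± 278 in heterozygous cells (SD, n = 3). The other subunits, Orc2, Orc3, Orc4 and Orc5, differed by between -0.07 and 0.09 and did not pass the test.

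The factors that load the helicase did not pass the test, while their inhibitor was lower. Cdc6 read 2491, 2573 and 2964 in null and 2328, 2411 and 2546 in heterozygous arrays, and the lines overlap. Cdt1 read 12573, 12416 and 11457 in null and 10716, 11102 and 11028 in heterozygous arrays. Its null arrays were all above its heterozygous ones, but the log2 difference of 0.15 had a limma adjusted p of 0.0573. Cdt1 was called as higher in 5 of 21 other settings: without null replicate 3 (0.19, adjusted p 0.00700), with quantile normalization (adjusted p 0.0136), array weights (0.0192) or the replicate block (0.0414), and with arrays centred on their medians (0.30). Geminin, encoded by Gmnn, read 6236, 6497 and 5512 in null and 7795, 7475 and 7658 in heterozygous arrays. It was lower on each null array than on any heterozygous array, and fell by 0.33 (adjusted p 0.00224). A second, bright Cdt1 probe set differed by 0.01, and the mean over the Cdt1 probe sets, of which the third averaged 3.80 in null and 11.6 in heterozygous cells, by -0.52, and neither passed. Once every array was centred on its median, Orc6 (-0.21, adjusted p 0.0964) and Gmnn (-0.18, adjusted p 0.0787) no longer passed, while Cdc6 (0.29) and Cdt1 were then called higher.

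The subunits of the helicase itself, the ring of Mcm2 to Mcm7, moved in both directions by small amounts. Of the 6, Mcm3 and Mcm6 were higher, Mcm2 and Mcm4 were lower, and Mcm5 and Mcm7 did not pass. Mcm3 and Mcm6 lie on chromosome 1, where all tested genes had a median difference of 0.30. Mcm2 read 7213, 7403 and 7851 in null and 9446, 8836 and 8906 in heterozygous arrays, so that no null array reached a heterozygous one. It fell by 0.28 on the log2 scale (limma adjusted p 0.00301). Mcm3 was the opposite, at 9892 ± 14.0 in null against 7685 ± 290 in heterozygous cells (SD, n = 3), a difference of 0.36 (adjusted p 0.000279). Its 3 other bright probe sets differed by 0.30 to 0.41. Mcm6 was higher by 0.18 (adjusted p 0.0212) and Mcm4 lower, at -0.18 (adjusted p 0.0288). Mcm7 read 18630, 18534 and 16734 in null and 17252, 16570 and 16804 in heterozygous arrays; the lines overlap and the difference of 0.09 did not pass (adjusted p 0.255), though it passed without null replicate 3 (0.14, adjusted p 0.0237). Mcm8, a relative that acts in recombination and is not part of the ring, differed by -0.20 and did not pass.

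The gap between the lowest and highest subunit of the ring was 0.64 on the log2 scale. Scaling an array moves all its genes alike, so such a gap does not depend on it, whereas the calls do: with arrays centred on their medians, Mcm2 (-0.12) and Mcm4 (-0.03) were not called, and Mcm5 (0.26) and Mcm7 (0.24) were called higher. The calls of Mcm4 and Mcm6 were lost on leaving out single arrays. The adjusted p of Mcm4 was 0.135, 0.0651, 0.0560 and 0.0745 without heterozygous replicate 2, heterozygous replicate 3, null replicate 1 and null replicate 2. That of Mcm6 was 0.0675, 0.0679 and 0.0832 without heterozygous replicate 2, heterozygous replicate 3 and null replicate 1. Both also missed the threshold as means over probe sets and when eBayes had no intensity trend.

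Among the 8 genes that activate the helicase, 1 was higher and 3 were lower, against 24.5% and 24.4% of all genes tested. Their median difference was -0.19. Dbf4, the subunit that activates the kinase Cdc7, read 3488, 3542 and 4401 in null and 6729, 6520 and 6864 in heterozygous arrays. All null arrays were well below the heterozygous ones, and Dbf4 fell to 3810 ± 512 in null against 6704 ± 173 in heterozygous cells (SD, n = 3), 1.77-fold lower, with a log2 difference of -0.82 ± 0.09 (SE) and a limma adjusted p of 1.57e-05. The kinase subunit Cdc7 itself did not pass the test, at -0.10 (adjusted p 0.470). Mcm10, which is needed for the loaded helicase to start unwinding, fell by 0.42 (adjusted p 0.00114). That call was lost as a mean over probe sets (-0.24) and without probe sets that may share sequence (-0.27).

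Cdc45 travels with the helicase at the fork. It read 892, 876 and 910 in null and 1127, 1073 and 945 in heterozygous arrays. The null arrays were all lower, by margins that varied, and the difference of -0.23 had a limma adjusted p of 0.0529. It passed as lower in 6 of 21 other settings: without heterozygous replicate 3 (-0.30, adjusted p 0.0161), with the stricter filter (adjusted p 0.0425), quantile normalization (0.0348), array weights (0.0209), the replicate block (0.0333) or arrays centred on the tested genes (0.0214). The 4 GINS subunits, which form 1 complex with Cdc45, did not move together. Gins1 was higher, at 4009 ± 209 in null against 2923 ± 144 in heterozygous cells (SD, n = 3), a log2 difference of 0.46 (adjusted p 0.000233), a call lost as a mean over its probe sets (adjusted p 0.126), of which the second averaged 44.1 in null and 35.1 in heterozygous cells. Gins3 was dim and lower, at 245, 262 and 245 in null against 360, 463 and 304 in heterozygous arrays, with a difference of -0.56 (adjusted p 0.0113). A second Gins3 probe set differed by -0.78. The Gins3 call was lost without heterozygous replicate 2, its brightest array (-0.40, adjusted p 0.0543), after centring arrays on their medians (-0.41, adjusted p 0.0607) and with values under 32 raised to 32 (adjusted p 0.0752). Gins2 and Gins4, at -0.15 and -0.09, did not pass, although a second Gins2 probe set of like brightness was lower and passed over all probe sets (-0.25, adjusted p 0.0406).

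**Figure D3:**
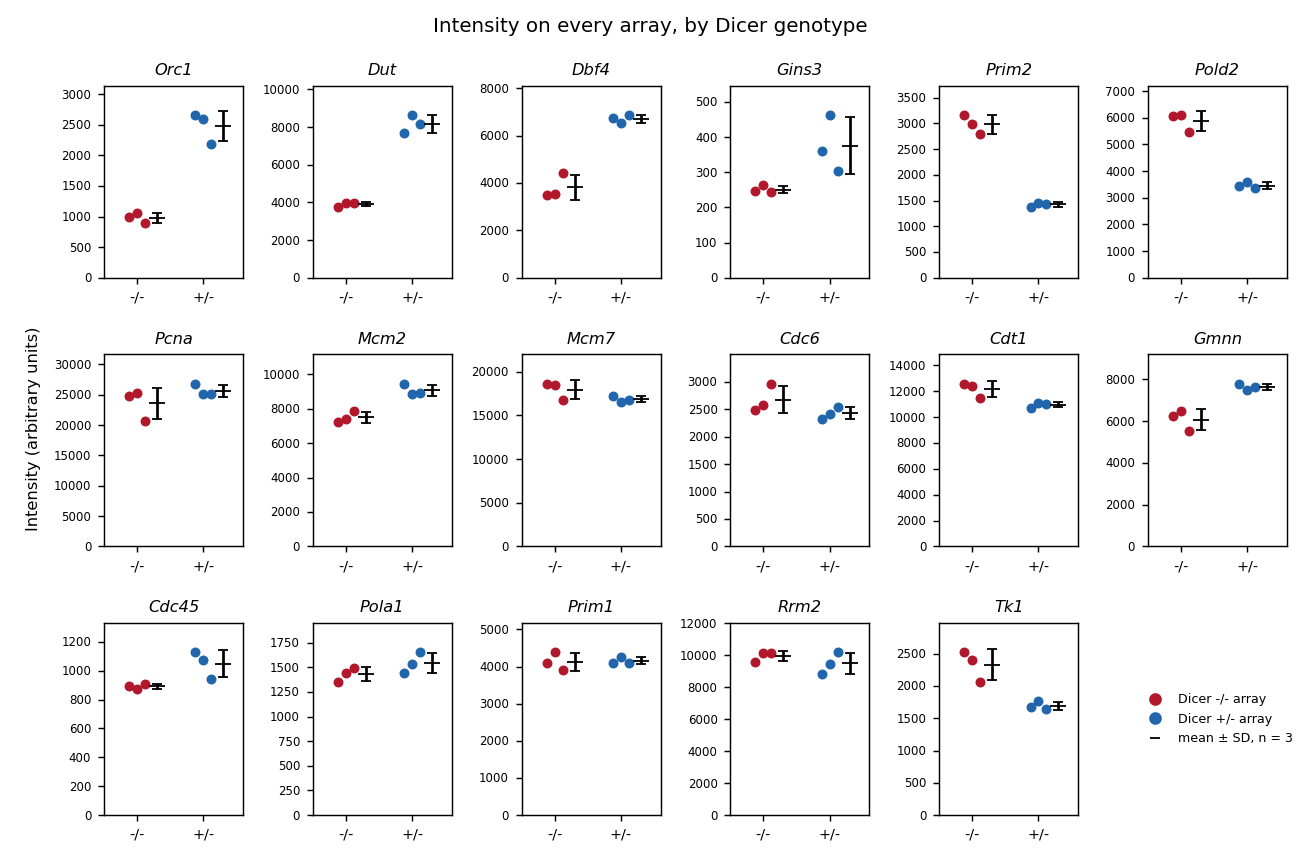
Intensity in arbitrary units (vertical axes, each from 0) on every array for 17 genes, with Dicer -/- arrays left of Dicer +/- arrays and the mean ± SD of 3 arrays beside the points. The lines are far apart for Orc1, Dut, Dbf4, Prim2 and Pold2, and overlap for Pcna, Mcm7, Cdc6, Pola1, Prim1 and Rrm2.

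Of the 9 polymerase and primase genes, 3 were higher and 1 was lower, against 24.5% and 24.4% of all genes tested. Prim2, the large subunit of the primase that starts each new strand, read 3160, 2983 and 2796 in null and 1379, 1457 and 1433 in heterozygous arrays. Every null array was above every heterozygous array by more than 1000 units. Prim2 rose to 2979 ± 182 in null cells, against 1423 ± 39.9 in heterozygous cells (SD, n = 3), 2.09-fold higher, with a log2 difference of 1.06 ± 0.07 (SE) and a limma adjusted p of 5.80e-07. Its second probe set differed by 1.04. Prim1, the catalytic primase subunit, read 4104, 4381 and 3908 in null and 4107, 4269 and 4093 in heterozygous arrays, which overlap, and differed by -0.01, with a 95% interval from -0.15 to 0.13. A second Prim1 probe set of similar brightness differed by 0.41 and passed over all probe sets (adjusted p 0.0165), so that the probe sets of Prim1 disagree.

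Primase works in a complex with polymerase alpha. Its catalytic subunit Pola1 read 1354, 1445 and 1494 in null and 1446, 1533 and 1650 in heterozygous arrays; the lines overlap, and the difference of -0.11 did not pass (limma adjusted p 0.294). The accessory subunit Pola2 was lower, at -0.26 (adjusted p 0.0215), and reversed to 0.56 as a mean over its probe sets, with an adjusted p of 0.322; the 2 other probe sets averaged under 40 in both lines. The Pola2 call was also lost with arrays centred on their medians (-0.11), when eBayes had no intensity trend (adjusted p 0.0556), and without heterozygous replicate 1 (-0.21, adjusted p 0.0861), heterozygous replicate 2 (-0.25, adjusted p 0.0725) or null replicate 2 (-0.26, adjusted p 0.0595).

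Polymerase delta, which copies the lagging strand, had 2 of its 3 listed subunits higher. Pold2, an accessory subunit, read 6078, 6102 and 5466 in null and 3426, 3586 and 3349 in heterozygous arrays. The null arrays were all far above, and Pold2 rose to 5882 ± 360 in null cells, against 3454 ± 121 in heterozygous cells (SD, n = 3), 1.70-fold higher, with a log2 difference of 0.77 ± 0.07 (SE) and a limma adjusted p of 3.90e-06. Pold1, the catalytic subunit, was higher by 0.48 (adjusted p 0.00113), and its second probe set by 0.48 as well. Pold3, a further accessory subunit, differed by -0.10 and did not pass. The subunits of the leading-strand polymerase, Pole and Pole2, were both at -0.17, with adjusted p values of 0.0610 and 0.0510, and passed in 7 and 6 of the other settings.

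PCNA, the ring that holds the polymerases on DNA, did not pass the test. Pcna read 24837, 25297 and 20591 in null and 26798, 25137 and 25049 in heterozygous arrays. The lines overlap, with the third null array the lowest, and the difference of -0.13 (limma adjusted p 0.206) had a 95% interval from -0.30 to 0.05. Pcna passed as lower with quantile normalization (-0.12, adjusted p 0.0424). Of the 5 subunits of RFC, which loads this ring, Rfc3 was higher (0.33, adjusted p 0.0199), Rfc2 was lower (-0.49, adjusted p 0.00557) and Rfc1, Rfc4 and Rfc5 did not pass, at -0.02, -0.10 and 0.07. Another bright probe set was lower and passed over all probe sets for Rfc1 (-0.29, adjusted p 0.010) and for Rfc4 (-0.29, adjusted p 0.00600), while the remaining Rfc1 probe set differed by 0.07 and did not pass. The mean over the Rfc4 probe sets was called lower, at -0.20 (adjusted p 0.0295). Rfc2 read 3143, 2813 and 2241 in null and 4207, 3920 and 3336 in heterozygous arrays. Its null arrays were all lower, though spread widely in both lines, and 2 dim probe sets of the gene, at 0.01 and -0.23, did not pass. The Rfc2 call was lost as a mean over probe sets (-0.24), when eBayes had no intensity trend (adjusted p 0.0559) and with values under 32 raised to 32 (adjusted p 0.0938). Rfc3 lost its call in the last 2 of these settings and without null replicate 1 (0.20, adjusted p 0.0665) or heterozygous replicate 1 (0.31, adjusted p 0.0657).

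RPA coats the exposed single strands. Its large subunit Rpa1 was higher, at 17396 ± 969 in null against 14378 ± 294 in heterozygous cells (SD, n = 3), a log2 difference of 0.27 (limma adjusted p 0.00283), and by 0.35 with its second probe set. Rpa2 and Rpa3 differed by -0.06 and 0.05 and did not pass. A second Rpa2 probe set of similar brightness was lower, at -0.22 (adjusted p 0.0265 over all probe sets), so that the probe sets of Rpa2 disagree. Neither did the 2 genes that finish Okazaki fragments, the flap nuclease Fen1 (0.04) and the DNA ligase Lig1 (-0.08). Fen1 was called without null replicate 3 (0.19, adjusted p 0.0332), an array on which it read 5436, against 7169 and 7679 on the other null arrays.

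Genes of deoxynucleotide supply included 1 of the 2 large decreases. Dut, the enzyme that breaks down dUTP and so keeps uracil out of DNA, read 3770, 3983 and 3956 in null and 7687, 8633 and 8182 in heterozygous arrays. The lines were far apart and the null arrays close together. Dut fell to 3903 ± 116 in null cells, against 8167 ± 474 in heterozygous cells (SD, n = 3), 2.09-fold lower, with a log2 difference of -1.06 ± 0.06 (SE) and a limma adjusted p of 2.74e-07. A second Dut probe set differed by -0.94; the chosen one ends in _a_at and may share sequence, and without such probe sets, or with arrays centred on their medians (-0.91), Dut stayed called but under 2-fold.

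Thymidine kinase, Tk1, which salvages thymidine, read 2519, 2407 and 2068 in null and 1675, 1762 and 1648 in heterozygous arrays. It was higher on every null array, with a log2 difference of 0.46 (limma adjusted p 0.000931). Rrm1, the large subunit of ribonucleotide reductase, was higher by 0.32 (adjusted p 0.00415), and by 0.29 with its second probe set. As a mean over its probe sets Rrm1 reversed to -0.66, with an adjusted p of 0.0450; the third probe set read under 30 in both lines. The small subunit Rrm2 read 9567, 10122 and 10176 in null and 8834, 9483 and 10181 in heterozygous arrays, which overlap, and differed by 0.07 (adjusted p 0.418). Its other bright probe sets differed by 0.09 and -0.26 and did not pass over all probe sets. With arrays centred on their medians, Rrm2 was called higher (0.22, adjusted p 0.0221). Tyms, thymidylate synthase, was measured only dimly, between 70.7 and 124 on the arrays, and its difference of -0.10 has a 95% interval from -0.71 to 0.51.

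Across complexes, the calls of the subunits were set side by side. Over all genes tested, 24.5% were higher and 24.4% lower, so few groups of any genes would pass whole in 1 direction. The 49 genes hold 10 complexes or enzymes with at least 2 measured subunits. In 4 of them (the MCM ring, GINS, polymerase alpha with primase, and RFC) some subunits were higher and others lower, and in 0 did all subunits pass in the same direction. Among the 10, polymerase epsilon was the 1 with no listed subunit past the test, and its 2 listed subunits were 0.0026 apart on the log2 scale. Its subunits Pole3 and Pole4, outside the 49 genes, passed as lower. The gap between the lowest and highest subunit was 1.43 in ORC, 1.33 in polymerase alpha with primase, 1.02 in GINS, 0.87 in polymerase delta, 0.83 in RFC, 0.72 in the Cdc7-Dbf4 kinase, 0.34 in RPA and 0.25 in ribonucleotide reductase.

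The higher genes lay mostly on 2 chromosomes. All tested genes of chromosome 1 had a median log2 difference of 0.30 and those of chromosome 11 one of 0.29, while the medians of the other 18 chromosomes lay between -0.15 and -0.01 (chromosomes from the mouse gene table of GRCm38.p6). Of the replication genes, 8 are on these chromosomes: Orc2, Mcm3, Mcm6 and Prim2 on chromosome 1, and Cdc6, Pold2, Rpa1 and Tk1 on chromosome 11. All 8 differences were positive, 6 passed as higher and 0 as lower, against 42.8% and 9.99% of the 1821 tested genes there. Of the 41 genes elsewhere, 4 were higher (Gins1, Pold1, Rfc3 and Rrm1) and 11 lower, against 21.5% and 26.7% of 11081 genes. Without these chromosomes the count of higher genes was therefore 4 in place of 10. Against the median of its own chromosome, a gene's difference was -0.21 for Orc2, -0.15 for Cdc6, -0.13 for Mcm6, -0.02 for Rpa1, 0.06 for Mcm3, 0.17 for Tk1, 0.48 for Pold2 and 0.76 for Prim2. What sets these chromosomes apart was not tested.

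**Figure D4:**
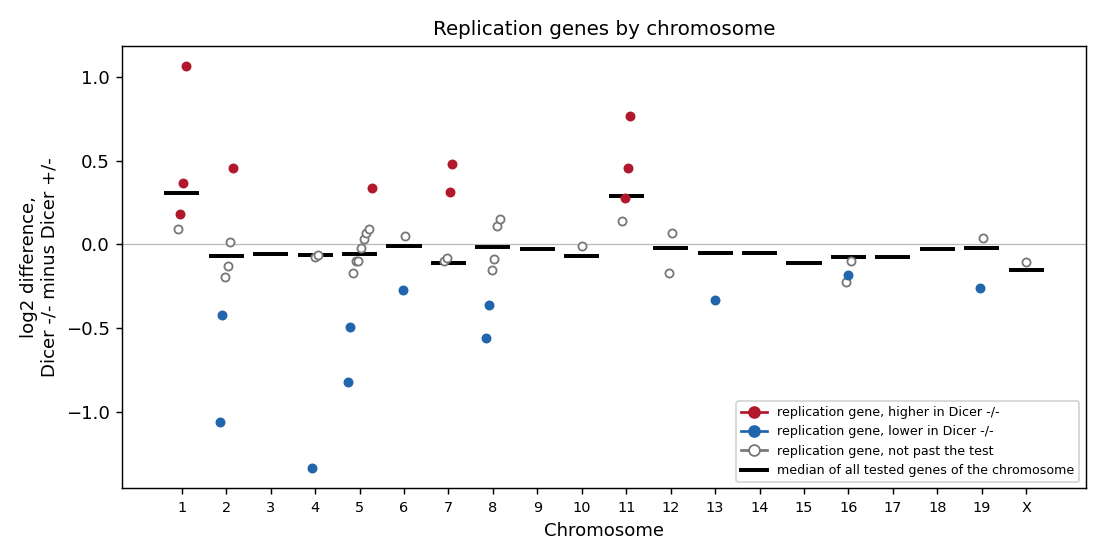
Log2 difference, Dicer -/- minus Dicer +/-, of each of the 49 replication genes (points) by chromosome, with the median of all tested genes of the chromosome as a bar. Chromosomes 1 and 11 have bars at 0.30 and 0.29 and hold 6 of the 10 higher genes; the bars of the other chromosomes lie between -0.15 and -0.01.

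Other probe sets of a gene mostly followed the chosen one. Of 97 probe sets of these genes that passed the filter, each tested on its own, 21 were higher and 19 lower, against 20.3% and 22.0% of all probe sets, 42.3% together. A second probe set was tested for 33 genes and had the same sign in 27. Of the 16 genes among them past the test, 14 had the same sign and 10 passed with both. Where the second probe set reached 500 in a line, 10 of 10 genes past the test had the same sign and 8 of 10 passed with both. Pola2 and Rfc2 passed with the chosen probe set and had the opposite sign with a dimmer second one, at 0.69 and 0.01, which did not pass. The chosen probe sets of Orc4 and Mcm5 did not pass, while a dimmer Orc4 probe set differed by 0.55 (adjusted p 0.00479) and a dim Mcm5 probe set by 0.95. Prim1, Gins2, Rfc1, Rfc4 and Rpa2 likewise had another probe set past the test, given with each gene above.

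**Figure D5:**
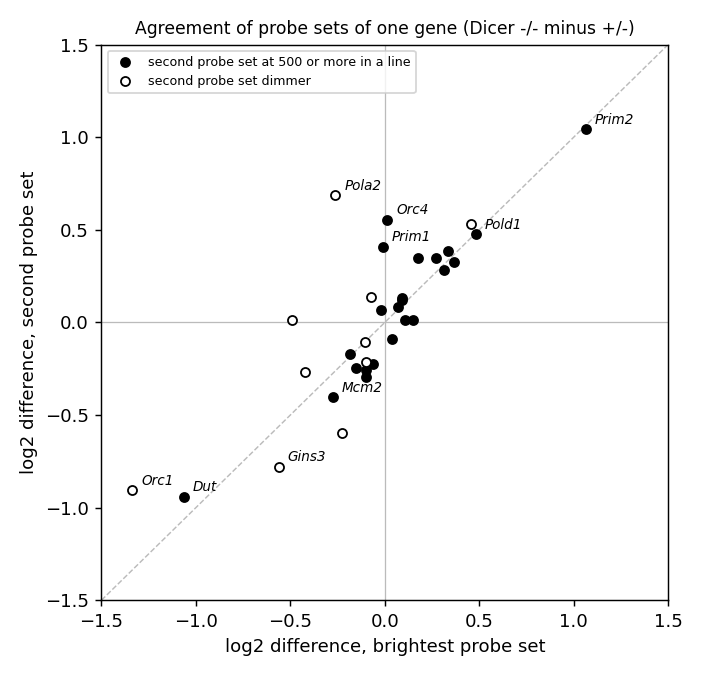
Log2 difference, Dicer -/- minus Dicer +/-, of the brightest probe set of a gene (horizontal axis) against that of its second probe set (vertical axis), for 33 genes, with the line of equality dashed. Prim2, Pold1 and Dut lie near the line, and Prim1, Orc4 and Pola2 lie off it.

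Genes that work beside this machinery were measured too, in lists that do not overlap it. Each gene named from them here and below passed the limma test at an adjusted p under 0.05. Of 18 genes of fork stability, origin firing factors and alternative clamp loaders, 3 were higher and 10 lower, with a median of -0.31. The 4 largest changes were Dscc1 (0.84) and Chtf18 (0.72), subunits of an alternative clamp loader, Mtbp (0.71), which acts in origin firing, and Wdhd1 (-0.71), which ties polymerase alpha to the helicase. A further subunit of that clamp loader, Chtf8, was lower (-0.49). Of 12 further polymerase, primer removal and topoisomerase genes, 3 were higher and 5 lower. They were led by the topoisomerase Top1 (-0.53), the polymerase epsilon subunit Pole3 (-0.50), the RNase H2 subunit Rnaseh2b (0.45) and Poldip2 (0.43, on chromosome 11), a partner of polymerase delta. These counts stand beside the 24.5% and 24.4% of all genes that were higher and lower.

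Histone chaperones and related genes moved in both directions. Of 10 measured chromatin assembly genes of 12 listed, 2 were higher and 5 lower, against 24.5% and 24.4% of all genes tested. Chaf1b, a subunit of the chaperone CAF-1 that places histones behind the fork, rose to 3011 ± 95.3 in null against 1321 ± 74.4 in heterozygous cells (SD, n = 3), 2.28-fold, and Asf1b, another histone chaperone, was higher by 0.72. Nasp, a carrier of histone H3, was lower (-0.88), as was Slbp (-0.59), which binds histone messenger RNA. Of 16 further nucleotide metabolism genes measured, 3 were higher and 5 lower, against the same shares of all genes. Rrm2b, a second small subunit of ribonucleotide reductase that p53 induces, read 505, 538 and 640 in null and 212, 125 and 181 in heterozygous arrays, 3.32-fold higher, on every null array. Shmt1, which feeds thymidylate synthesis, was 2.23-fold lower, Dctpp1, which breaks down dCTP, 2.17-fold lower, and Dctd, which makes dUMP, was higher by 0.52.

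The kinases, ubiquitin ligases and E2F proteins that control entry into S phase moved in both directions. Of 14 genes of S phase control, 3 were higher and 8 lower, with a median of -0.30. Beside this count and those below, 24.5% of all genes tested were higher and 24.4% lower. Dtl, which directs the destruction of Cdt1 during replication and lies on chromosome 1, was 2.32-fold higher, and Fbxo5 (Emi1), an inhibitor of the anaphase-promoting complex, 1.85-fold lower, while the cyclins Ccne2 and Ccne1 were at 0.88 and -0.72. Of 11 E2F and retinoblastoma family genes, 2 were higher and 3 lower: the repressors Rbl2 (2.08) and Rbl1 (0.98) rose, and the partner Tfdp1 (-0.53) and E2f4 (-0.53) were among the 3. Of 13 mitotic genes measured, 2 were higher and 6 lower, led by the centromeric histone Cenpa (-1.13), the kinase Aurkb (0.67; chromosome 11), the checkpoint protein Mad2l1 (-0.61) and the cyclin Ccnb2 (0.46).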

How the data were processed

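The deposited table holds 1 intensity for each of 45101 probe sets on 6 arrays. Per the values, the authors' deposited intensities are linear and every array has a mean of 500 after trimming 2% at each end. GCRMA is the only tool in the submitters' processing notes; its step is unknown. Intensities were turned into log2, with values under 1 raised to 1. Leaving aside 64 control probe sets, 34945 probe sets carried 1 gene symbol, 932 several and 9160 none. Each gene was its probe set with the highest mean log2, kept if it reached log2 5 on at least 3 arrays. Groups came from the sample titles. Lines were compared with limma 3.58.1 in R 4.3.3 (lmFit, eBayes with an intensity trend), two-sided, Benjamini-Hochberg adjusted over 12902 genes, without a replicate block, and the procedure was tested on simulated data. Values on every array are given for genes past the test that differ by at least 0.5 and for 12 genes fixed whatever their values. Of each other list, up to 4 genes past the test are named. Besides them Chtf8, Pole4 and, not past the test, Pold4 are named as subunits of complexes described. Other genes and probe sets were named after their values were seen. The genes and lists were chosen with earlier results of these data known. Alternatives covered filters, a floor, probe set choice, normalization, variance priors, array weights, the block and leaving out each array; the other centring, the log floor and leaving out chromosomes were chosen after seeing the data.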

Additional observations from a re-analysis of the deposited data

How the results depend on the processing

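The counts at an adjusted p under 0.05, 10 higher and 11 lower genes, stayed within 1.5 times except in 3 settings. Arrays centred on their medians gave 17 and 5, and leaving out chromosomes 1 and 11 gave 4 and 11. With every probe set on its own the counts were 21 and 19, of probe sets and not of genes. All 10 higher and 11 lower genes kept their call there. Leaving out an array gave 8 to 13 higher and 8 to 11 lower. The 2-fold count was 1 higher and 2 lower without any array. It was 2 higher with every probe set, where both are probe sets of Prim2, and 2 higher at a 1.5-fold threshold. Leaving out chromosome 1, alone or with chromosome 11, removes Prim2, the 1 gene higher by 2-fold, so the count was then 0. It was 1 lower without shared-sequence probe sets or with centred arrays. The median difference, -0.07, was 0.080 with centred arrays and -0.06 to -0.02 without an array. As means over probe sets, Pola2 (0.56) and Rrm1 (-0.66) reversed; both means include probe sets averaging under 40. Of 1010 single-gene values, 938 kept their call, 34 lost one and 36 gained one. With the replicate number as a block, 11 were higher and 14 lower. Same-numbered arrays correlated at 0.03, 0.03 and 0.08 in their deviations, each best with its own number. Whether same-numbered arrays shared a step was not tested, and the main fit takes no block. Dim probe sets, such as those of Tyms, limit what can be seen.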
